A study of Drosophila melanogaster with 3 samples.

Results

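Of the 4943 peaks in the conservative list of a Dbx-eGFP chromatin immunoprecipitation with sequencing (ChIP-seq), 1467 (29.7%) had their summit at a promoter without a divergent neighbour, here called a lone promoter. A peak was counted when its summit was at most 250 bp from the start of transcription (TSS) of any protein-coding gene and the nearest TSS had no start of another protein-coding gene on the opposite strand within 1000 bp upstream of it. The other 1076 of the 2543 promoter summits lay at starts that do have such a neighbour, called head-to-head promoters. The 1467 peaks were nearest to 1295 genes. The study measured 1 group of 3 biological replicates: whole Drosophila melanogaster embryos of strain Dbx-GFP, 8 to 24 h old, carrying a fusion of Dbx and eGFP that was recovered with an antibody against GFP after sonication to 200 to 800 bp. The labels do not say which promoter drives the fusion, which cells made it or how many embryos were pooled, and nothing says that one tissue was isolated. The same rule found 1133, 949 and 574 peaks in the thresholded lists of replicates 1, 2 and 3, a mean of 885 ± 285 (SD, n = 3), out of 3701, 3353 and 2519 peaks. The read depth behind the lists is unknown, and the control was not analysed here, so how far these peaks are particular to the fusion was not tested.

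Dbx belongs to the homeodomain transcription factors and is made in interneurons of the embryonic nerve cord, and homeodomains as a class read short AT-rich words with a TAAT core. Fly genes are packed closely, and many starts lie back to back, so that a single open region serves both genes. A lone promoter has no such partner and drives a gene in 1 direction. In flies, broadly expressed genes tend to use promoters with the DNA replication-related element (DRE, bound by Dref) or Motif 1 (bound by M1BP), and regulated genes tend to use promoters with GAGA repeats (bound by GAGA factor), an initiator (Inr) at the start or a TATA box before it.

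The sequences that carry these elements are shown for some bound lone promoters, as the 200 bases that end just before the start. They were taken from those of highest signal among 199 candidates whose peak was in all 3 replicate lists, whose summit lay in the window and whose window held no annotated exon: the highest without regard to sequence (CG14100, chr3L:19590525-19590724, minus strand, and CG18549, chr3R:12449096-12449295, plus strand), the highest with a DRE (eEF1gamma, chr3R:29219972-29220171, plus strand, and PlexA, chr4:1027102-1027301, minus strand), with a Motif 1 core (lute, chr3R:17385691-17385890, plus strand, and Rnp4F, chrX:5322697-5322896, minus strand) and one of the highest with a GAGA word (CG1907, chr3R:29618865-29619064, plus strand). Each is written 5′ to 3′ on the strand of the gene from the RefSeq sequence of dm6, and capitals mark a DRE (TATCGATA), a Motif 1 core (GGTCACAC), a GAGA word (GAGAGAG) or the homeodomain word TAATTA on either strand.
CG14100: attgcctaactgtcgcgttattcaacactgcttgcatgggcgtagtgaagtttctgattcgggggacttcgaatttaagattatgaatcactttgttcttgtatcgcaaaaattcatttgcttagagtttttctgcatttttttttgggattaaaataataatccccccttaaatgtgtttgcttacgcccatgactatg
CG18549: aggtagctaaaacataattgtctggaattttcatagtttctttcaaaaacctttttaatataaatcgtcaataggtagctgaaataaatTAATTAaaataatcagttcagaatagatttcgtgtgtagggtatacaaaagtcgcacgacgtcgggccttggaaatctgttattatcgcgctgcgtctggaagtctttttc
eEF1gamma: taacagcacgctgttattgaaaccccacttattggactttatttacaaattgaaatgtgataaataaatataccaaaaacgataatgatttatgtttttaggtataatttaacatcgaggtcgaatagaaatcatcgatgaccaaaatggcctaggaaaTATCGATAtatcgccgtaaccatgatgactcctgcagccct
PlexA: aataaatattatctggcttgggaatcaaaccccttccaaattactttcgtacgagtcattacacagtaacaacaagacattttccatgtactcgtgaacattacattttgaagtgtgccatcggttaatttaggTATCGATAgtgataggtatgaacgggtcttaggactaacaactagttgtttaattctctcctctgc
lute: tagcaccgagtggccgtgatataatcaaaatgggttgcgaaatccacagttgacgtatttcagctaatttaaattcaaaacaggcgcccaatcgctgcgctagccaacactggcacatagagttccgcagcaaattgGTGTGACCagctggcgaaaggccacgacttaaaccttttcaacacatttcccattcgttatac
Rnp4F: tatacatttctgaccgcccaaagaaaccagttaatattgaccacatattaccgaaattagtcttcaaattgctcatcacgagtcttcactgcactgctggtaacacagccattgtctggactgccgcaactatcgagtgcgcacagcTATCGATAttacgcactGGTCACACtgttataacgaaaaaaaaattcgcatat
CG1907: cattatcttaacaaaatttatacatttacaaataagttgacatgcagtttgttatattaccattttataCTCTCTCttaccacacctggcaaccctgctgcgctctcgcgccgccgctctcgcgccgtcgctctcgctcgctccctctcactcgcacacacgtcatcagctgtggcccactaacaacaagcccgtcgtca

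The distance of the summit from the marked word varied among them. At eEF1gamma, an elongation factor subunit, the DRE ran from 41 to 34 bp before the start and the summit was at −35 bp, where negative positions are upstream of the TSS. At lute the Motif 1 core ran from 63 to 56 bp before the start and the summit was at −57 bp, and at Rnp4F, a splicing protein, the core ran from 36 to 29 bp and the summit was at −19 bp. The summits at PlexA, a semaphorin receptor, and CG1907 lay further out, at −174 and −176 bp, with the word from 66 to 59 and 131 to 125 bp before the start. CG14100, which had the highest signal of all 1467 members, held none of the 4 words, with its summit at −96 bp, and CG18549 held TAATTA, with its summit at −130 bp.

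Lone promoters were bound less often than head-to-head promoters. Starts of 1 gene within 250 bp of each other were joined, which gave 18012 promoters, of which 12513 (69.5%) were lone. A conservative summit lay within 250 bp of 1443 lone promoters (11.5%) and of 1639 of 5499 head-to-head promoters (29.8%), 2.58 times as many. In replicate lists 1, 2 and 3 the lone share was 9.02%, 7.65% and 4.68% (7.12% ± 2.22, SD, n = 3) and the head-to-head share 23.5%, 24.1% and 20.4% (22.7% ± 1.97). The lone share was the lower one in all 3 lists, by a mean difference of −15.6 ± 1.02 percentage points (two-sided exact sign-flip permutation over the 3 replicates, p = 0.25, the smallest that 3 allow, so this design cannot pass 0.05), and the head-to-head share was 2.60, 3.16 and 4.37 times the lone share. A summit between 2 back-to-back starts counts for both of them. With each summit given to its nearest promoter only, a setting chosen after seeing the data, the shares were 11.1% and 18.9%, 1.71 times as many (1.75, 2.10 and 2.80 times in the replicate lists), and the replicate difference was −7.49 ± 0.891 percentage points (exact sign-flip permutation p = 0.25).

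As a share of promoter summits, lone promoters gave 57.7% in the conservative list and 57.1%, 52.3% and 45.5% in replicates 1, 2 and 3 (51.6% ± 5.84, SD, n = 3), each below their 69.5% of all promoters. Replicate 3 had the fewest lone peaks and was the only list with fewer lone than head-to-head promoter summits, 574 against 688. It was also the shortest list, and whether its length accounts for this was not tested.

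Binding at lone promoters varied with what lay upstream. Among those outside other genes, 15.9% were bound where the next gene upstream ended within 1000 bp on the same strand (9.57% ± 2.82 in the replicate lists, SD, n = 3), 11.2% where it lay over 1000 and up to 5000 bp away (7.08% ± 2.01) and 9.49% where it lay over 5000 bp away (5.62% ± 2.25). Lone promoters inside the body of another gene were bound at 8.65% (5.66% ± 1.77). This order held in replicates 1 and 2, at 11.5%, 8.84%, 7.78% and 7.38% and at 10.8%, 7.51%, 5.80% and 5.77%, while in replicate 3 the last pair was in the other order, at 3.29% and 3.84% after 6.34% and 4.89%. Taken within each replicate list, the first step was 2.49 ± 0.962 percentage points and the second 1.46 ± 0.349, each with the same sign in all 3 (exact sign-flip permutation p = 0.25, the smallest possible), and the third was −0.0438 ± 0.482 (exact p = 1.0). Where an opposite start lay over 1000 and up to 2000 bp upstream, just beyond the limit of the rule, 14.6% were bound, against 17.6% of head-to-head promoters over 500 and up to 1000 bp apart and 36.2% of those up to 250 bp apart. Promoters of genes with 3 or more promoters were bound at 14.1% and those of genes with 1 promoter at 9.98%. First and internal promoters of a gene did not differ by more than the replicate spread (11.5% and 11.6%). The median length of the gene was 6369 bp for bound lone promoters and 3393 bp for all lone promoters. Chromosome 4, which is largely heterochromatic, had 3 members, at 2.75% of its 109 lone promoters, and 4.59%, 4.59% and 0.917% in the 3 replicate lists.

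**Figure D1:**
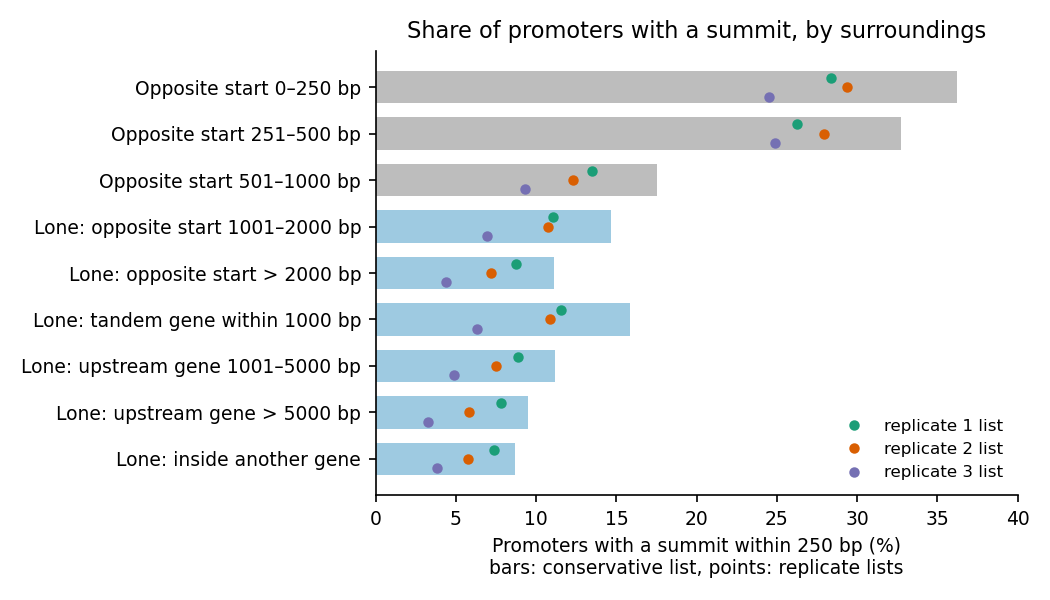
Share of promoters with a summit within 250 bp (%), by the distance of the opposite-strand start upstream and, for lone promoters, by the gene upstream. Bars show the conservative list and points the 3 replicate lists. Head-to-head promoters (grey) reach 36.2%, and the lone classes (blue) lie between 8.65% and 15.9%.

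Summits at lone promoters lay mostly upstream of the start. Their median position was −47 bp (quartiles −130 and 23 bp), and 68.0% were upstream. In replicates 1, 2 and 3 the median was −53, −65 and −103.5 bp (−73.8 ± 26.4 bp, SD, n = 3) and 69.1%, 75.1% and 85.2% were upstream. Head-to-head summits had a median of −53.5 bp in the conservative list and of −61 ± 14.8 bp in the replicates. The lone median was further upstream in all 3 replicate lists, by −12.8 ± 11.6 bp (exact sign-flip permutation p = 0.25, the smallest possible), but not in the conservative list. At a head-to-head promoter the distance is taken from the nearer of both starts, so its upstream side is cut by their spacing: 8.32% of lone summits lay 200 to 250 bp upstream, against 1.86% of head-to-head summits.

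**Figure D2:**
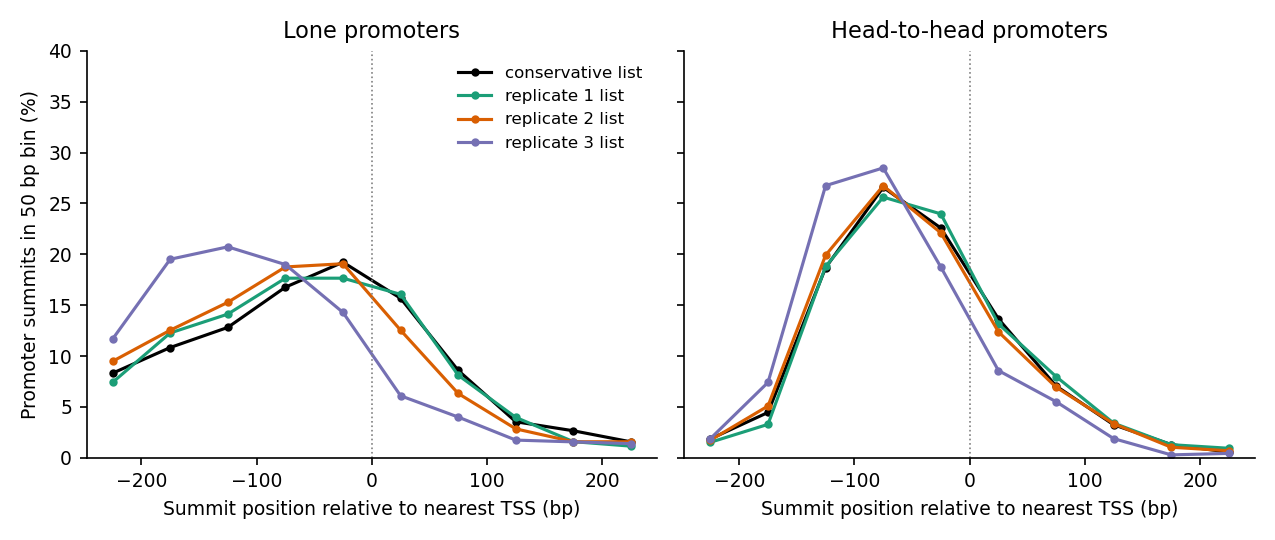
Share of promoter summits (%) in 50 bp bins of position relative to the nearest TSS (negative is upstream), for lone (left) and head-to-head promoters (right), one line per list. The lone distribution is broader, and replicate 3, with a median of −103.5 bp, is shifted upstream of the other lists.

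The upstream position went with the strength of the peak. With the members ranked by the authors' signal and cut into 5 equal parts, the median position was −130 bp in the highest part and −56, −32.5, −13 and 4 bp in the next ones, and the share upstream was 92.9%, 74.7%, 65.3%, 59.0% and 47.8%. The same order was seen in each replicate list, from −119 to −18.5 bp in replicate 1, from −134.5 to −25 bp in replicate 2 and from −150 to −56 bp in replicate 3. The highest part was cut within each class. Its replicate median was −134.5 ± 15.5 bp for lone and −94.7 ± 8.505 bp for head-to-head promoters (SD, n = 3). The lone one was further upstream in each of the 3 (exact sign-flip permutation p = 0.25). Members of the highest part were also narrower, with a median width of 247 bp against 400 bp in each of the other parts. The median over the whole conservative list was 400 bp too. Many peaks of the other parts were exactly this long with the summit at the centre, so this width need not measure how broad they were. Over the same 414 members that had a peak across their summit in all 3 lists, the medians drew together. They were −105, −109.5 and −116 bp in replicates 1, 2 and 3. In 73.7% of these members the 3 replicate summits lay within 50 bp of each other. The share within 50 bp of the conservative summit was 92.3%, 94.4% and 87.2% in replicates 1, 2 and 3. Limits of the rule cut through a continuous range: CG2865 and CG13743 were just inside 250 bp, both with summits at −250 bp, and CG31871 and mthl10 just outside, both at −252 bp. Nep1 and CG9992, with opposite starts 1004 and 1012 bp upstream, were members, and RpS7 and hts, with 1000 and 999 bp, were not.

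**Figure D3:**
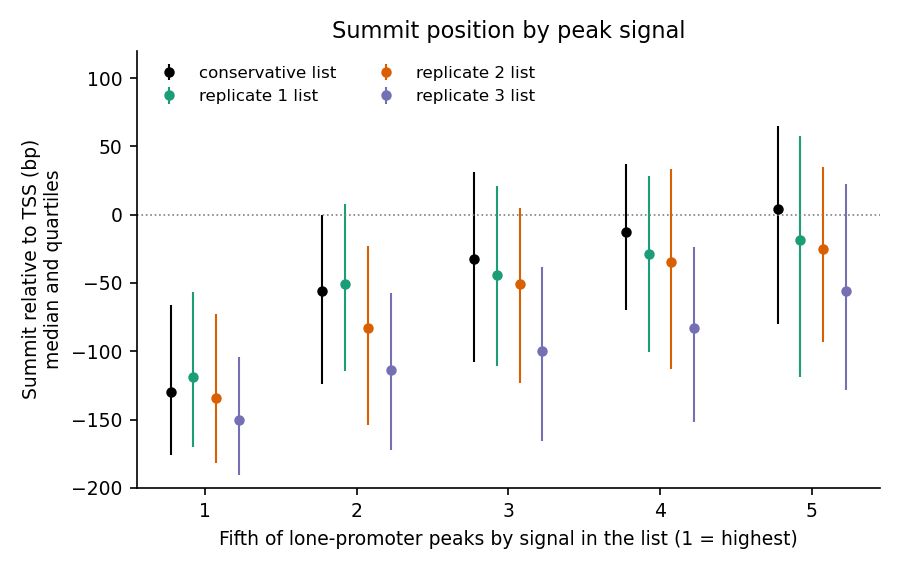
Summit position relative to the TSS (bp, negative is upstream) for lone-promoter peaks in 5 equal parts by signal within each list (1 is the highest). Points are medians and lines run between the quartiles. In the conservative list the median moves from −130 bp to 4 bp, and each replicate list runs in the same direction.

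Fewer lone-promoter peaks than head-to-head peaks were found again in every replicate. The replicate lists come from the libraries behind the conservative list, so this describes the lists and is no independent test. Of the 1467 members, 445 (30.3%, 95% Wilson interval 28.0 to 32.7%, which covers counting error over peaks only) overlapped a peak in all 3 replicate lists by 1 bp or more, 345 in 2 of them, 365 in 1 and 312 (21.3%) in 0. Of head-to-head peaks 50% were in all 3 and 12.8% in none, and of all peaks 36.2% and 20.5%. The overlap of members with replicates 1, 2 and 3 was 66.1%, 59.99% and 36.8%. The labels do not say which replicates or pools were compared to make the conservative list, and these shares depend on that. Most members absent from a thresholded list had a peak below the threshold. Absent from the lists of replicates 1, 2 and 3 were 497, 587 and 927 members. Of these, 95.4%, 94.9% and 80.3% had their summit in a peak of the longer ranked list. The ranked lists held 78411, 99500 and 86520 peaks, and how often promoters without a thresholded peak fall in one was not tested. Members in all 3 lists had a median position of −112 bp, and those in 2, 1 and 0 lists −30, −16 and −17.5 bp.

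Taken over all peaks of each class, the median signal rank was lower at lone than at head-to-head promoters. The median member stood at percentile 45.9 of the conservative list by signal, and the median head-to-head peak at 61.4. In replicates 1, 2 and 3 the lone percentile was 49.1, 48.2 and 53.4 (50.2 ± 2.77, SD, n = 3) and the head-to-head one 56.5 ± 0.429, a difference of −6.21 ± 2.95 with the same sign in all 3 (exact sign-flip permutation p = 0.25). Among peaks in the same number of replicate lists the order was mixed. The median conservative rank of lone and head-to-head peaks was 824 and 875.5 in all 3 lists and 2304 and 2256.5 in 2. It was 3429 and 3166.5 in 1 list and 4054 and 4061.5 in 0. Recurrence followed signal: 96.3% of the highest part of the members and 43.7% of the next were in all 3 lists, against 4.42%, 0.341% and 6.83% of the other parts. Of the 20 peaks in the lowest part that were in all 3 lists, 18 overlapped a higher peak of the conservative list. For head-to-head peaks the shares were 98.6%, 87.4%, 45.1%, 8.37% and 10.2%. The parts were cut within each class and cover different ranks, so these shares do not compare peaks of equal signal. The second part ran from rank 1141 to 2184 for lone and from 696 to 1431 for head-to-head peaks. The third ran from 2186 to 3168 and from 1437 to 2359.

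For the 20 member peaks of highest signal present in all 3 replicates, the conservative ranks ran from 3 to 73 of 4943, and the replicate ranks from 3 to 94, 3 to 111 and 2 to 192. CG14100 (FBgn0036889, summit at chr3L 19590620) led with a signal of 3017 and ranked 3, 3 and 2 in the replicates. It was followed by eIF6 (which takes part in maturing the large ribosomal subunit, signal 1891, −99 bp), Fkbp14 (a prolyl isomerase, 1538, −124 bp), CG18549 (1476, −130 bp) and gish (a casein kinase, 1394, −151 bp). Next came amon (a prohormone convertase, −206 bp), GstE13 (a glutathione S-transferase, 73 bp), CG1888 (−231 bp), Gapdh2 (a glycolytic enzyme, −165 bp), MFS10 (a membrane transporter, −159 bp), px (a regulator of wing veins, −200 bp), CG1635 (−141 bp), CG11857 (−49 bp), Tina-1 (−177 bp) and Atf3 (a bZIP transcription factor, −188 bp). The remaining ones were CG31145 (−172 bp), CG7737 (−133 bp), msi (Musashi, an RNA-binding protein of neural precursors, −222 bp), CG13921 (−152 bp) and moody (a G protein-coupled receptor in glia that seal the nervous system, −154 bp). Summits lay upstream at 19 of the 20, by 100 bp or more at 16, with a median of −153 bp, and only GstE13 had its summit downstream. Of the 20, 1 promoter held a DRE, 5 a GAGA word, 6 an Inr, 3 TAATTA and 0 a Motif 1 core or a TATA box.

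Replicates placed these summits close together. At CG14100 the summit was at −88, −102 and −96 bp in replicates 1, 2 and 3, at eIF6 at −98, −98 and −101 bp and at CG1888 at −229, −231 and −231 bp. At CG11857 they spread more, at −45, −64 and −89 bp. Ranks varied more at some genes. Gapdh2 ranked 13, 41 and 74 in replicates 1, 2 and 3, CG7737 ranked 28, 93 and 192, and CG31145 ranked 84, 54 and 41.

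The highest members in no replicate list were near the middle of the conservative list. They were eIF3f1 (an initiation factor subunit, rank 2091, −37 bp), Ero1L (an oxidase of the endoplasmic reticulum, rank 2457, −97 bp), ocm (rank 2533, −110 bp), CG11444 (rank 2600, −30 bp) and fal (rank 2658, −53 bp). In the ranked replicate lists, −log10 of the irreproducible discovery rate (IDR) at eIF3f1 was 0.590, 0.243 and 1.505, and at Ero1L 1.46, 1.73 and 1.95, where the thresholded lists begin at 2.0002, 2.00033 and 2.00059.

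A pair of genes had member summits at 4 separate starts over 500 bp apart. Ptpmeg2, a protein tyrosine phosphatase on X with 6 promoters, had 4 members, at −194, −203, −190 and 136 bp from their starts and ranks 210, 366, 1508 and 2431, and the first 3 of these were in all 3 replicate lists. Eip75B, an ecdysone-induced nuclear receptor on 3L with 7 promoters, had 5 members at 4 starts, between ranks 1418 and 4738, of which 1 was in all 3 lists.

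Bound lone promoters held DRE, Motif 1 and GAGA words more often than lone promoters with no summit, and TATA boxes less often. Words were read from 250 bp before to 50 bp after the start, on both strands, in the 1443 bound lone promoters and in the 10061 with no summit within 500 bp in any of the 5 lists used. The TATA box was read as the letters TATAAA from 40 to 20 bp before the start and the Inr as TCAGT within 10 bp of it, both on the gene strand only. The DRE was in 9.36% of bound and 3.68% of unbound lone promoters (7.72% of all promoters), a ratio of 2.54, with 7.88%, 9.61% and 7.69% in the replicate lists. The Motif 1 core was in 7.62% against 2.88% (6.55% of all promoters), a ratio of 2.64, with 7.35%, 8.15% and 7.86% in the replicates, but in the 500 conservative peaks of highest signal the ratio was 0.938. The GAGA word was in 16.9% against 7.65% (7.74% of all promoters), a ratio of 2.21, and in 18.6%, 14.2% and 11.5% in replicates 1, 2 and 3, ratios of 2.43, 1.86 and 1.496. The TATA box was in 3.12% against 8.14% (6.30% of all promoters), a ratio of 0.383, with 3.54%, 3.45% and 3.59% in the replicates. These 4 were the words of the 15 searched whose shares differed by more than 1.5 times in either direction, a limit chosen after seeing the data.

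At least 1 of DRE, Motif 1 core and GAGA was in 31.9% of bound lone promoters and in 13.8% of unbound ones. DRE and GAGA were in the same bound promoter in 5 cases, and DRE and Motif 1 core in 21. The GAGA and Inr words set the lone class apart from the head-to-head class, where the DRE and Motif 1 were more frequent. Bound head-to-head promoters held the DRE in 20.2%, the Motif 1 core in 13.5%, the GAGA word in 2.56% and the Inr in 5.92%, where bound lone promoters held the Inr in 20.3%. In the replicate lists the difference between the classes, lone minus head-to-head, was −11.5 ± 0.789 percentage points for the DRE, −5.10 ± 1.27 for the Motif 1 core, 12.9 ± 3.24 for GAGA and 14.3 ± 1.58 for the Inr (SD, n = 3), each with the same sign in all 3 (exact sign-flip permutation p = 0.25, unadjusted, the smallest possible, over the 15 words compared). Unbound promoters of the same classes differed in the same direction. Unbound head-to-head promoters held the DRE in 12.5%, the Motif 1 core in 12.2%, GAGA in 4.77% and the Inr in 8.31%, and unbound lone promoters held the Inr in 15.2%. GAGA and Inr were thus less frequent in bound than in unbound head-to-head promoters, and more frequent in bound than in unbound lone promoters.

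The words most typical of homeodomains were not more frequent at bound than at unbound lone promoters, but around the strongest summits they were more frequent than in the flanks. TAATTA was in 16.4% of bound and 17.7% of unbound lone promoters (19.0% of all promoters), a ratio of 0.930, and in 15.3%, 18.2% and 17.8% in the replicates. The shorter TAAT, which TAATTA contains, was in 87.3% and 89.8%, and in 86.4%, 89.8% and 92.1% of bound lone promoters in replicates 1, 2 and 3. For peaks in all 3 replicate lists the ratio of bound to unbound was 1.026 for TAATTA and 1.031 for TAAT. Around member summits, TAATTA was within 100 bp in 10.4%, where windows of the same width 1000 bp to either side had a mean of 11.1%. Among members in the highest part by signal it was 15.3% against 12.1%, among summits at least 100 bp upstream 17.6% against 11.6%, and among summits within 50 bp of the start 5.41% against 11.1%. TAAT was within 100 bp of 72.1% of member summits against 76.9% in the flanks, of 87.8% against 75.5% in the highest part by signal, of 86.1% against 76.4% for members in all 3 replicate lists and of 64.7% against 77.4% for summits within 50 bp of the start. TATAAA, also AT-rich, was within 100 bp of 22.9% of member summits against 21.9% in the flanks. In the highest part by signal it was 33.7% against 22.4%. For summits at least 100 bp upstream it was 32.7% against 22.4%, and for those within 50 bp of the start 18.5% against 22.2%. These windows differ in base composition and in how much of the gene they cover, and their part in these values was not tested. Absence of the word says only that these letters are not in the window.

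Other words showed smaller differences. CAGCTG, an E-box palindrome, was in 20.2% of bound and 14.8% of unbound lone promoters, the Inr in 20.3% and 15.2%, and CGATA, which the DRE contains, in 47.3% and 37.9%. Zelda (CAGGTA, 6.38% and 6.76%), Ets (CCGGAA, 6.10% and 6.997%), Pho (GCCAT, 40.4% and 42.2%), GATA (GATAA, 51.4% and 51.2%) and CACGTG (3.88% and 3.67%) were within 1.5 times of each other, and the CG step was in nearly all promoters. In the 500 conservative peaks of highest signal the ratio of Zelda was 0.300 and that of Ets 1.54. Mean GC content was 41.9% in bound and 40.8% in unbound lone promoters and 37.7% in bound head-to-head promoters. Over all 2080 words of 6 bp, counted with their reverse complement, 1981 reached a share of 5% in either set. Of these, 54 were over 1.5 times as frequent in bound lone promoters, 19 of them in each replicate list too, and 44 were as much less frequent, 21 of them in each replicate list. The highest ratio was that of CGATAG (20.4% against 10.4%), which overlaps the DRE. Among words over 1.5 times as frequent in each replicate list too and outside those searched, ACCGCG had the highest ratio in the conservative list (9.36% against 4.94%), followed by ACAGTG (20.03% against 11.2%), whose ratio was the higher of the pair in each replicate list.

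**Figure D4:**
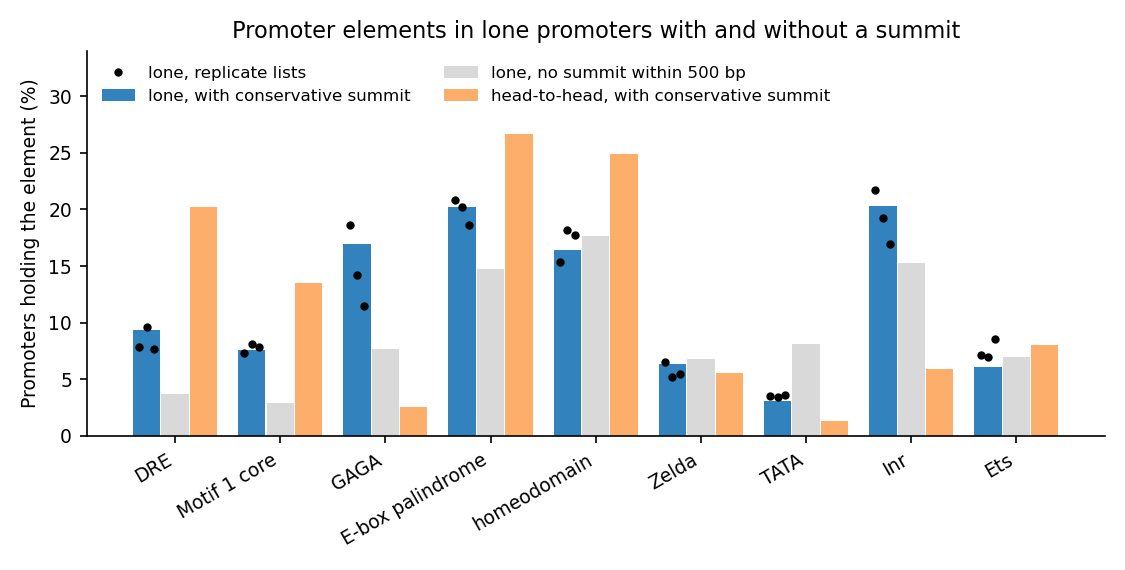
Share of promoters (%) that hold each element, for lone promoters with a conservative summit (blue, points for the 3 replicate lists), lone promoters with no summit within 500 bp (grey) and head-to-head promoters with a summit (orange). DRE, Motif 1 core and GAGA are higher in blue than in grey, and TATA is lower, at 3.12% against 8.14%.

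DRE and Motif 1 lay close to the start, and GAGA and TAATTA further out. In the members' own promoters the median centre of the DRE was at −45.5 bp, of the Motif 1 core at −18.5 bp, of GAGA at −92 bp and of TAATTA at −157.5 bp. The DRE was within 50 bp of the summit in 48.9% of the members that held it, the Motif 1 core in 35.3%, TAATTA in 29.8% and GAGA in 24.3%. Members with a summit within 50 bp of the start held a DRE in 13.1%, and those with a summit at least 100 bp upstream in 4.61%. For GAGA the shares were 16.6% and 19.7%. By signal the DRE share of the 5 parts ran 7.14%, 10.6%, 9.52%, 12.3% and 7.17%, with no single direction.

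By gene, 1295 of the 9654 genes with a lone TSS (13.4%) were nearest to a member in the conservative list, and 10.4%, 9.03% and 5.61% in replicates 1, 2 and 3. Each list of genes below is set beside these shares as a description, and a gene can be in more than 1 list. A share in a small list moves much with 1 gene, and longer genes with more promoters have more starts to be hit.

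Of the machinery of protein synthesis, ribosomal protein genes had the highest share. Members were nearest to 24 of 38 cytoplasmic ribosomal protein genes with a lone TSS (63.2%), and in replicates 1, 2 and 3 to 55.3%, 55.3% and 47.4%, with 17 of the genes in all 3 replicate lists. The highest were RpL23A (signal 705, rank 128, −107 bp), RpL30 (434, rank 348, −5 bp), RpS29 (394, rank 417, −1 bp) and RpL22 (361, rank 485, −66 bp). Their 24 summits had a median position of −11.5 bp, nearer to the start than the −47 bp of all members. Translation factors had 11 of 31 (35.5%, replicates 17.2% ± 3.72, SD, n = 3), led by eIF6, eEF1gamma (rank 265, −35 bp), eEF1alpha1 (rank 586, −55 bp) and eEF2 (rank 1055, −3 bp), the latter 3 being elongation factors. Of 73 mitochondrial ribosomal protein genes 58 had only head-to-head starts, and 1 of the other 15 was called, mRpL10 (rank 3447), which was in 0 replicate lists. Aminoacyl-tRNA synthetases had 1 of 11, PheRS-m.

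Other genes of basic cell functions lay closer to the share of all genes than the cytoplasmic ribosomal protein genes did. The transcription machinery had 5 of 22 (22.7%, replicates 16.7% ± 5.25), with Polr2F (an RNA polymerase subunit, rank 374), Taf4 (a TFIID subunit, rank 665), MED4 (a Mediator subunit, rank 1062) and Polr2E (rank 2666). DNA replication and cell cycle genes had 6 of 28 (21.4%, and 14.3% in each replicate), with Dp (a partner of E2F, rank 319), BubR1 (a spindle checkpoint kinase, rank 1239) and polo (a mitotic kinase, rank 2211). Small GTPases and vesicle coats had 8 of 50 (16%, replicates 8.67% ± 3.06), with deltaCOP, Rab5, Sar1 and Rab1 highest. Splicing factors had 2 of 6 (33.3%, and 16.7%, 0% and 0% in the replicates), tra2 (rank 3078) and B52 (rank 4936). Proteasome subunits had 3 of 26 (11.5%, with Rpn10 highest) and respiratory chain genes 2 of 43 (4.65%, UQCR-14 and ND-B22). Heat shock genes and chaperones had 4 of 16 (25%, and 37.5%, 18.75% and 6.25% in the replicates), led by Hsp27 (a small heat shock protein, rank 169, −146 bp) and Hsp26 (rank 2492). With peaks that overlap a higher peak left out, a setting chosen after seeing the data, the share of splicing factors above that of all genes fell from 19.9 to 3.38 percentage points.

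Genes of chromatin and promoter-binding factors had shares above that of all genes in the conservative list. The list of insulator and promoter-binding factors had 5 of 11 (45.5%, replicates 33.3% ± 10.5), among them Trl (GAGA factor, rank 335, 114 bp), BEAF-32 (an insulator protein, rank 974, −69 bp) and lola (rank 1669). The 5 include chif (rank 1027), whose place among such factors was not examined. Polycomb and trithorax group genes had 7 of 18 (38.9%), but 38.9%, 22.2% and 0.0% in replicates 1, 2 and 3. The highest were kis (a chromatin remodeller, rank 1675), Su(z)2 (rank 2223), ash2 (rank 2406) and Psc (rank 2701), and 0 of the 7 were in all 3 lists.

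In the nervous system, the share of axon guidance and adhesion genes was above that of neuroblast and neuron identity factors, although the difference was not tested. Axon guidance had 19 of 45 (42.2%), and 40%, 26.7% and 11.1% in replicates 1, 2 and 3, with 5 genes in all 3. The highest were trio (a guanine nucleotide exchange factor, rank 296, −227 bp), PlexA (rank 306, −174 bp), Abl (a tyrosine kinase, rank 1016, −137 bp) and Lar (a receptor phosphatase, rank 1502, −49 bp). Identity factors had 10 of 52 (19.2%), and 11.5%, 1.92% and 1.92% in the replicates, with 0 in all 3. The highest were lola, numb (a Notch inhibitor, rank 2054, 59 bp), brat (rank 2434, 20 bp) and chinmo (rank 2572, 78 bp), and their 10 summits had a median of 24.5 bp, downstream of the start. Genes of neuronal function had 4 of 39 (10.3%), with Nrx-1 (neurexin, rank 644, in all 3 lists), Shab (a potassium channel, rank 1829), shi (dynamin, rank 2417) and dlg1 (rank 4168). Glial genes had 5 of 16 (31.2%, replicates 12.5% ± 6.25), with moody in all 3 lists and Gli, Cont and loco next.

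Of the remaining lists, signalling genes had 19 of 48 (39.6%), and 25%, 16.7% and 8.33% in replicates 1, 2 and 3. Those highest were sgg (the GSK3 kinase of Wingless signalling, rank 281, −194 bp), spi (an EGF receptor ligand, rank 368, −152 bp), nkd (a Wingless antagonist, rank 391, −118 bp) and aos (an EGF receptor inhibitor, rank 1566, −138 bp). Epidermis and trachea genes had 6 of 21 (28.6%, replicates 7.94% ± 2.75), with bnl and cora highest, gut, fat body and blood genes 6 of 24 (25%, replicates 15.3% ± 6.36), with fkh (rank 442), ush (rank 458), bowl (rank 674) and kay highest, and mesoderm and muscle genes 6 of 39 (15.4%, replicates 7.69% ± 5.13), with tin (rank 469, −171 bp), if, sns and Zasp52 highest. Homeobox genes had 13 of 77 (16.9%, replicates 6.06% ± 1.98), led by Dll (rank 203, −88 bp), tin, bcd (rank 1498) and NK7.1 (rank 2550). Among the 13, zfh1, zfh2, Lim1 and en were also counted with the neuroblast and neuron identity factors. All genes with a lone TSS were at 10.4%, 9.03% and 5.61% in replicates 1, 2 and 3. Homeobox genes were below this in each, at 7.79%, 6.49% and 3.90%. Epidermis and trachea (9.52%, 9.52% and 4.76%) and mesoderm and muscle (12.8%, 7.69% and 2.56%) lay on both sides of it. Chemoreceptors had 0 of 154 and cuticle proteins 0 of 109, in the conservative list and in each replicate list.

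**Figure D5:**
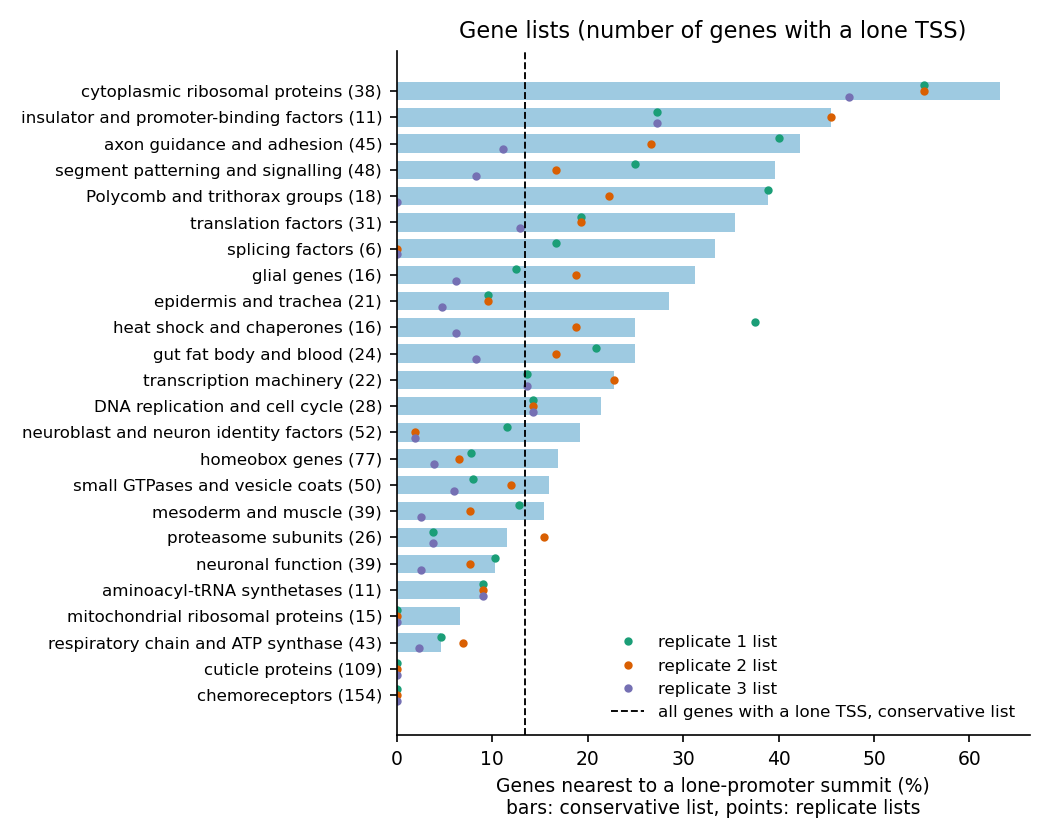
Genes of each list nearest to a lone-promoter summit (%), out of the number with a lone TSS given in brackets. Bars show the conservative list, points the replicate lists, and the dashed line the 13.4% of all genes with a lone TSS in the conservative list. In replicates 1, 2 and 3 the share of all genes was 10.4%, 9.03% and 5.61%. Ribosomal protein genes are at 63.2%, chemoreceptor and cuticle protein genes at 0.0%, and the replicate 3 points are the lowest in most lists.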

How the data were processed

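Peak lists of the conservative and longest series-level sets and of the 3 replicates were used, on dm6 per the labels. Peak signals are deposited values of the authors and served only as a rank within a list. The summit offset and −log10 of the IDR are also deposited values, and every thresholded replicate peak had an IDR of at most 0.01 in the ranked list. The deposited text derives the series-level lists from the alignments of all 3 replicates. Aligner and caller names were not given in the sources used here. The other series-level lists were not used, nor were 8 columns of unnamed samples in each of 4 ranked lists. The ranked replicate lists held 132, 101 and 76 peaks past the same threshold that the thresholded lists did not, 38, 30 and 13 of them at lone promoters, and 0 members would gain a replicate by them.

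Starts came from Ensembl release 115 on chromosomes 2L, 2R, 3L, 3R, 4 and X, and sequence from RefSeq of the same assembly, where 99.5% of start codons read ATG. Of 1467 members 33 were equally near to more than 1 start or gene, which went to the start with the nearer opposite neighbour. Classes were compared by exact sign-flip permutation over replicates (scipy 1.17.1), after the class rule was tested on simulated data. Shares of words and gene lists are descriptions. Named genes are the 20 highest members in all 3 replicates, up to 4 per list, those at the limits, the 5 highest in no replicate list and genes with 4 or more bound starts. The members, words and lists were chosen with earlier results of these data known. The limit of 1.5 times, the joining of starts, the signal parts, the upstream classes, the 6 bp scan, the choice of sequences and a correction that took a cytochrome P450 reductase out of the cuticle list were set after values were seen. The planned background was promoters with no summit in any thresholded list, and 5 lists were used for it. A promoter sequence and a gene of the lists are not reported here.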

Additional observations from a re-analysis of the deposited data

How the results depend on the processing

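The count of words over 1.5 times as frequent in bound lone promoters stayed at 3 of 15 under every alternative run, although the ratio of the Motif 1 core turned to 0.938 in the 500 peaks of highest signal, where Ets came in at 1.54 and Zelda was at 0.300. The fold of head-to-head over lone bound shares stayed above 1 under every alternative run, and was 4.46 for peaks in all 3 replicate lists and 4.50 in the 500 highest. Leaving out 1 replicate (peaks in both other lists) gave 3.39 to 4.51. The lone share of promoter summits was 45.3% for peaks in all 3 lists, 47.2% in the 500 highest, 68.1% with an upstream limit of 500 bp, 48.7% with 2000 bp, and 45.1 to 51.6% leaving out a replicate. The median position was −112 bp for peaks in all 3 lists, −147 bp in the 500 highest, −14 bp with a promoter limit of 100 bp, and −110 to −73 bp leaving out a replicate. The median signal percentile was 50.5 in the longest list, 54.8 for peaks in all 3 lists, 51.1 in the 500 highest, 40.4 at 100 bp, and 43.5 to 53.4 leaving out a replicate. The share in all 3 lists was 25.96% for the longest list, 99.3% in the 500 highest and 21.2% at 100 bp. Lists above the share of all genes numbered 17 of 24, 11 for peaks in all 3 lists, and 11 to 15 leaving out a replicate.

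As list share minus all-gene share in percentage points, splicing factors, Polycomb and trithorax groups, and epidermis and trachea turned to −4.36 each for peaks in all 3 lists, −1.47 in the 500 highest, −4.80 without replicate 1 and −4.65 without replicate 2, and without replicate 3 epidermis and trachea turned to −6.82 while the first 2 lists stood at 9.85 each. Fewer peaks enter these settings. Mitochondrial ribosomal proteins turned to 5.80 with an upstream limit of 500 bp, and at 100 bp transcription machinery turned to −4.25 and gut, fat body and blood to −0.461. The cause was not tested. Without overlapped peaks, splicing factors fell to 3.38. Of the other values, for single words and lists, 270 moved by less than the replicate spread and 181 by more. Among these, 45 that stood within 1.5 times of the background crossed it, 24 of words and 21 of lists: neuroblast and neuron identity factors (−6.82 to −1.47), homeobox genes (−1.74 to −0.322), mesoderm and muscle (−4.25 to −1.80), aminoacyl-tRNA synthetases (2.28 and 11.2), neuronal function (0.876 and 1.46), small GTPases and vesicle coats (−2.79 and −1.47) and proteasome subunits (3.21). The words that crossed included TAATTA (ratios of 1.016 to 1.047) and TAAT (1.001 to 1.036). There is 1 group of samples, so no block between groups could be fitted, and class differences were taken within each replicate list. Read depth is unknown, so limits from depth cannot be given.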
